A study of Mus musculus with 26 samples.

Results

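Complement components and receptors were followed in the mouse entorhinal cortex and hippocampus through all probe sets of 9 listed genes: C1qa, C1qb, C1qc, C3, C4b, C3ar1, C5ar1, Itgam and Serping1. Of the 18194 genes that the array annotation names through a probe set of their own, 7 were members. No probe set was named for C3, which was not analysed here. The single probe set for C4b is annotated to C4a and C4b together, so it is called the C4 probe set below and its signal is not assigned to either gene. With it, the members had 13 of the 45101 probe sets on each array.

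Complement is a cascade of plasma and tissue proteins that tags surfaces for removal. C1q, assembled from the products of C1qa, C1qb and C1qc, recognises a target and starts the classical pathway, in which C4 and then C3 are cleaved and deposited, while C1 inhibitor, the product of Serping1, holds the first proteases in check. In the brain microglia are the main source of C1q, and complement is known for marking synapses that microglia engulf through the receptor CR3, of which Itgam encodes the alpha chain.

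The study delivered a lentiviral vector carrying brain-derived neurotrophic factor (BDNF), a neuronal growth factor, to the entorhinal cortex of APP transgenic mice, a model of Alzheimer's disease that overproduces amyloid precursor protein. In each region there were 4 arrays of APP transgenic mice given BDNF, 4 of APP transgenic mice given green fluorescent protein (GFP), 2 of non-transgenic mice given GFP and 3 of non-transgenic mice with a sham lesion, 26 arrays in 8 groups. Tissue was collected 4 weeks after infection from mice described as aged. The labels name neither the transgene line, its promoter nor an exact age, there was no transgenic sham group and no non-transgenic BDNF group, and the hippocampus itself received no vector. The replicates are called biological, but arrays are not tied to animals, so the p-values describe the spread between these samples.

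Values are log2 expression, so a difference of 1 is a doubling. Array medians lay between 5.51 and 5.58. The dissections matched their labels: a list of 5 hippocampal markers averaged 5.33 to 5.995 on entorhinal arrays and 8.38 to 8.98 on hippocampal arrays. The brightest Bdnf probe set was 0.11 ± 0.21 (SE) with BDNF relative to GFP in the entorhinal cortex and -0.14 ± 0.17 in the hippocampus. Neither was called, and whether this probe set detects RNA from the vector was not tested. Entorhinal transgenic BDNF array 3 and non-transgenic GFP array 2 stood apart with a mean of 7.39 and 7.68 over 7 oligodendrocyte markers, against 8.43 or more elsewhere in that region. Leaving out both changed no call of a member. One hippocampal sham array read 9.504 for 4 choroid plexus markers, and the other 12 hippocampal arrays at most 6.62. Xist was high on all 10 non-transgenic arrays and on 2 of 4 arrays in each transgenic group, so genotype and sex are partly mixed. In bulk tissue, fewer cells of a type and less RNA per cell cannot be told apart.

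Promoters of 6 members were held in the sequence table used, and those of C1qb, C1qc and Itgam are shown because they hold the letters of a myeloid factor's binding core, so they were chosen by that match. Each is the 250 bases before the gene start, 5′ to 3′ in the direction of transcription, from RefSeq on build GRCm38.p6. C1qb covers chr4:136886201-136886450 (minus strand), C1qc chr4:136892915-136893164 (minus strand) and Itgam chr7:128062390-128062639 (plus strand). Capitals mark GAGGAA on either strand, which is the purine-rich core bound by PU.1, a transcription factor of microglia and other myeloid cells; on the opposite strand it appears as TTCCTC.
C1qb: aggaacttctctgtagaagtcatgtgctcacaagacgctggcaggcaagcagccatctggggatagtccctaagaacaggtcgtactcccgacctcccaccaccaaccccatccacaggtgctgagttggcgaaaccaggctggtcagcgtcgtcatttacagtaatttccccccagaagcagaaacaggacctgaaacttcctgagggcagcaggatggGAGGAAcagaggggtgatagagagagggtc
C1qc: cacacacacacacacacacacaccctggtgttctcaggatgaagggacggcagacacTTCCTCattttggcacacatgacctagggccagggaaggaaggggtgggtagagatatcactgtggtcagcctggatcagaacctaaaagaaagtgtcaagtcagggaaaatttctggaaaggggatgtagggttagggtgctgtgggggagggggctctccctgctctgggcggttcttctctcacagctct
Itgam: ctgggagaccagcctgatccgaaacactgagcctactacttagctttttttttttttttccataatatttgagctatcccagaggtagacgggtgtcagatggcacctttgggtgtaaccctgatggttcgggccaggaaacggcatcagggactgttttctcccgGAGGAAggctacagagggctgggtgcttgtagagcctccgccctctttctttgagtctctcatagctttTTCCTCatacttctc
These letters occur in 3 of the 6 member windows and in 23.3% of all 32851 windows of this length. The core of the interferon-stimulated response element was in 0 of the 6 windows and in 2.98% of all. TTCNNNGAA, a core bound by STAT factors, was in 0 of the 6 and in 7.02% of all. A match describes letters only.

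The recognition subunits of C1q varied widely between arrays of a group. On entorhinal arrays C1qa read 9.16, 9.32 and 9.42 on sham arrays, 10.48 and 9.01 on non-transgenic GFP arrays, 9.59, 9.44, 9.999 and 10.805 on transgenic GFP arrays, and 10.51, 9.15, 9.51 and 9.65 on transgenic BDNF arrays. One array in each vector group read 10.48 or more, and no sham array passed 9.42. All 4 transgenic GFP arrays lay above every sham array, narrowly at 9.44 against 9.42, while the other pairs of groups overlapped. Transgenic GFP and sham arrays differ in both genotype and vector, and the share of all genes that separate them was not computed. The order of the group means was sham (9.30 ± 0.13, SD, n = 3), transgenic BDNF (9.70 ± 0.58, n = 4), non-transgenic GFP (9.74 ± 1.04, n = 2) and transgenic GFP (9.96 ± 0.61, n = 4), and no neighbours in that order differed by more than their spread.

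In the hippocampus C1qa read 9.62, 9.32 and 9.59 on sham arrays, 10.67 and 9.72 on non-transgenic GFP arrays, 10.06, 10.56, 10.22 and 9.47 on transgenic GFP arrays, and 9.92, 9.39, 9.08 and 9.35 on transgenic BDNF arrays. Both GFP groups reached 10.56 or more, and neither the sham nor the BDNF arrays passed 9.92. Group means ran from 9.43 ± 0.35 (SD, n = 4) with BDNF and 9.51 ± 0.17 (n = 3) in sham to 10.08 ± 0.45 (n = 4) in transgenic GFP and 10.19 ± 0.67 (n = 2) in non-transgenic GFP. In that order only the step from sham to transgenic GFP exceeded the SD of both groups, and their arrays overlapped.

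C1qb, the subunit whose gene lies beside C1qa and C1qc, spanned 8.15 to 10.25 in the entorhinal cortex and 9.12 to 10.34 in the hippocampus. C1qc spanned 7.85 to 9.88 and 8.44 to 9.74 in the same order. Sham arrays of both genes stayed within a narrow band, with an SD of 0.21 in the entorhinal cortex and 0.20 in the hippocampus for C1qb and of 0.21 in both for C1qc. The other 2 probe sets of C1qb had entorhinal ranges of 7.29 to 8.68 and 7.51 to 9.69. Their highest 3 entorhinal arrays were the highest 3 of the main probe set. In the hippocampus their highest 3 held transgenic BDNF array 1 and transgenic GFP array 1, respectively, in place of transgenic GFP array 3.

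C4, the component that C1 cleaves next, had the widest spread of the members in both regions. On entorhinal arrays its probe set read 8.20, 8.46 and 8.54 in sham, 10.52 and 8.42 in non-transgenic GFP, 9.50, 8.86, 9.26 and 10.22 in transgenic GFP, and 10.40, 8.56, 8.11 and 9.17 in transgenic BDNF. All 4 transgenic GFP arrays lay above every sham array, a separation whose share over all genes was not computed, while the other vector groups overlapped sham. On hippocampal arrays it read 8.75, 9.004 and 9.06 in sham, 10.85 and 9.25 in non-transgenic GFP, 9.65, 10.43, 10.31 and 8.86 in transgenic GFP, and 9.78, 9.11, 8.49 and 8.78 in transgenic BDNF. Both non-transgenic GFP arrays lay above sham, where 29% of all genes had no overlap of these groups, and 3 of 4 transgenic GFP arrays read 9.65 or more.

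Serping1, which encodes the inhibitor of the C1 proteases, read 7.40, 7.79 and 7.42 in entorhinal sham, 8.66 and 7.28 in non-transgenic GFP, 7.85, 7.45, 7.09 and 8.61 in transgenic GFP, and 8.22, 7.12, 6.53 and 8.11 in transgenic BDNF. All 3 vector groups reached both above and below sham. In the hippocampus it read 7.13, 7.07 and 7.09 in sham, 8.57 and 7.38 in non-transgenic GFP, 7.77, 8.17, 7.60 and 6.38 in transgenic GFP, and 7.26, 7.22, 6.75 and 7.28 in transgenic BDNF. The sham values nearly coincided (SD 0.03, n = 3), and both the highest and the lowest array of the region carried GFP.

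The receptors were dimmer. Itgam, the CR3 alpha chain, read 5.16, 5.15 and 5.45 in entorhinal sham, 6.12 and 5.53 in non-transgenic GFP, 5.78, 5.58, 5.54 and 5.90 in transgenic GFP, and 5.96, 5.34, 5.13 and 5.76 in transgenic BDNF. Both GFP groups lay wholly above sham there. Non-transgenic GFP and sham did not overlap for 19.2% of all genes, and for transgenic GFP and sham that share was not computed. In the hippocampus Itgam read 5.34, 5.58 and 5.61 in sham, 6.31 and 5.34 in non-transgenic GFP, 5.56, 6.07, 5.85 and 5.20 in transgenic GFP, and 5.65, 5.25, 5.48 and 5.58 in transgenic BDNF, with all groups overlapping.

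C3ar1, the receptor for the C3a fragment, spanned 5.18 to 6.04 in the entorhinal cortex and 5.07 to 5.79 in the hippocampus on its main probe set. Of its other 2 probe sets, called the second and the third, the third was wider, at 4.05 to 6.19 and 4.29 to 6.08. C5ar1, the receptor for C5a, stayed between 3.71 and 4.28 in the entorhinal cortex and between 3.97 and 4.41 in the hippocampus. Its mean lay below the filter of 4.33, the 30th percentile of probe sets, so C5ar1 and the C4 probe set were tested in a fit over all probe sets and 6 members in the fit over 14941 genes.

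**Figure D1:**
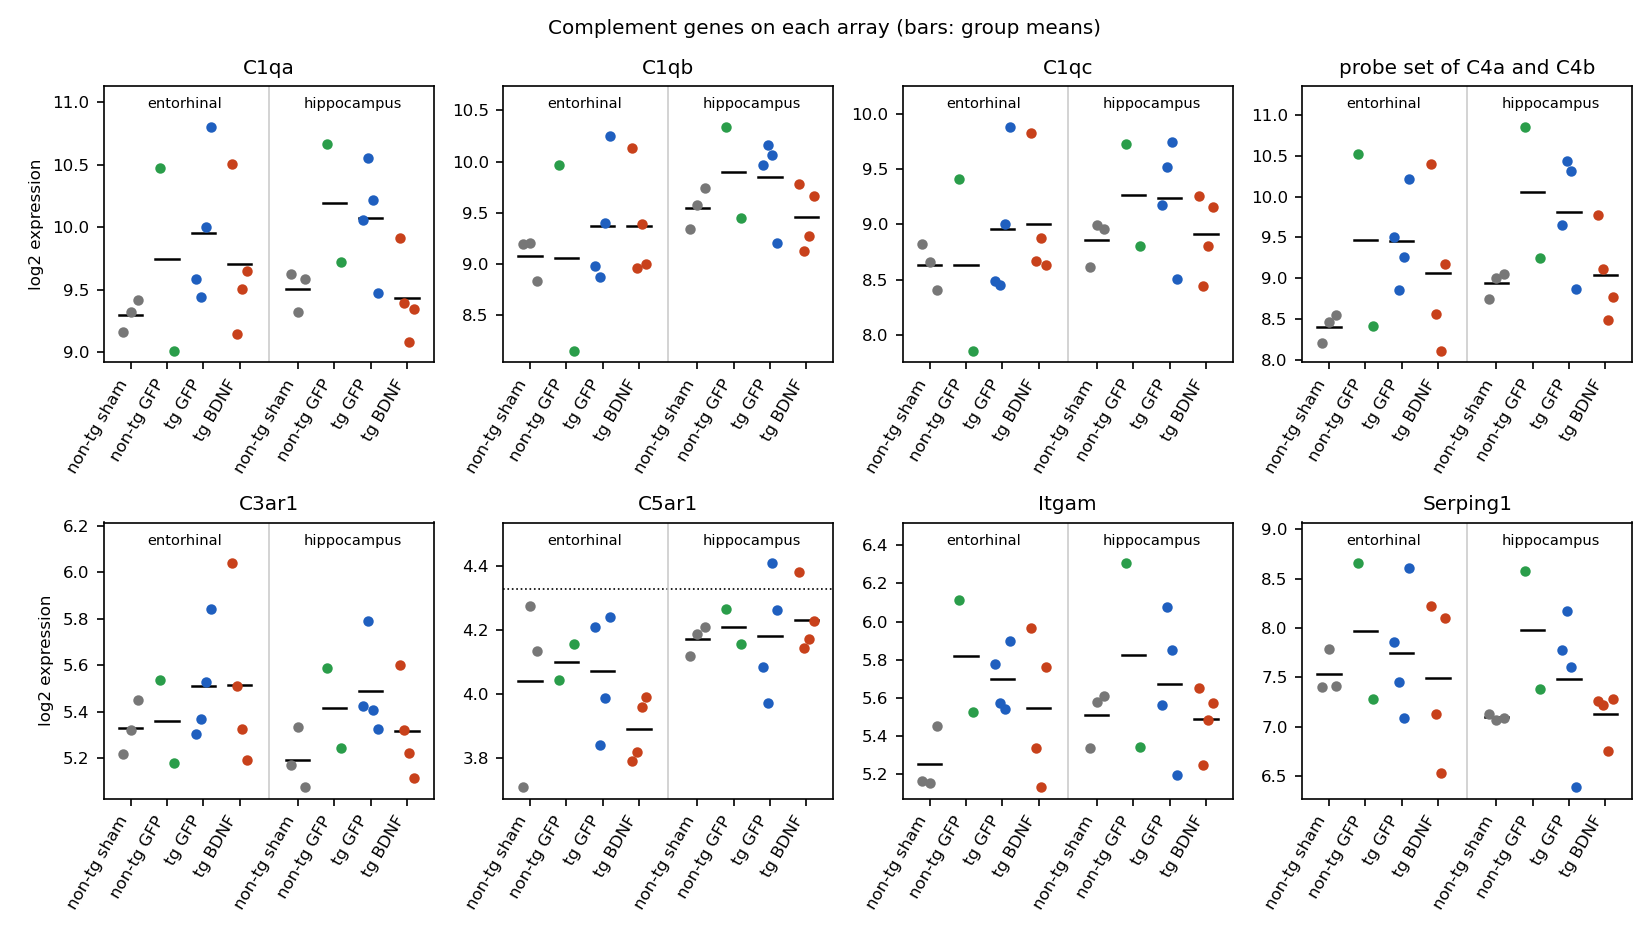
Log2 expression of the 8 members read, 1 point per array, by region and group, with black bars at group means; tg means APP transgenic and the dotted line is the filter of 4.33. Sham arrays sit close together at 9.16 to 9.42 for entorhinal C1qa, while single arrays of each vector group reach 10.48 to 10.805.

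Within-group spread set most members apart from the median gene. Around the group means of the entorhinal fit, the SD was 0.60 for C1qa, 0.65 for C1qb, 0.63 for C1qc, 0.69 for Serping1 and 0.83 for C4, against a median of 0.14 over the genes tested, and these lie at the 98.6th to 99.4th percentiles. Hippocampal SDs of the same 5 ran from 0.39 for C1qb to 0.65 for C4, against a median of 0.13. Itgam had 0.29 and 0.34, C3ar1 0.27 and 0.20, and C5ar1 0.19 and 0.13 in the entorhinal cortex and hippocampus. The sham arrays had little of this spread: over 7 members without C5ar1, sham SDs were 0.12 to 0.22 in the entorhinal cortex and 0.03 to 0.21 in the hippocampus, and those of transgenic BDNF arrays 0.37 to 0.99 and 0.18 to 0.56. No test of the spread between groups was run.

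The same arrays were high for most members. In the entorhinal cortex, non-transgenic GFP array 1, transgenic BDNF array 1 and transgenic GFP array 4 were the highest 3 for 7 of the 8 members read, all but C5ar1. In the hippocampus, non-transgenic GFP array 1 and transgenic GFP arrays 2 and 3 were the highest 3 for 5 of 8, namely C1qa, C1qb, C1qc, C4 and Itgam. Each vector group held such an array in the entorhinal cortex, and the sham groups held none in either region.

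Beside them, the averages of marker lists of other immune cells were high on some of the same arrays. A list of 8 tested lymphocyte genes of 11 listed averaged 7.83 on entorhinal non-transgenic GFP array 1 and 7.67 on transgenic GFP array 4, but 5.98 on transgenic BDNF array 1. Its group ranges in the entorhinal cortex were 5.33 to 5.49 in sham, 5.77 to 7.83 in non-transgenic GFP, 5.73 to 7.67 in transgenic GFP and 5.51 to 6.09 in transgenic BDNF. The hippocampal ranges in that order were 5.18 to 5.46, 7.12 to 7.27, 5.54 to 7.33 and 5.41 to 6.03, so hippocampal non-transgenic GFP array 2 was high for lymphocyte genes at 7.12 with C1qa at 9.72.

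Monocyte and neutrophil genes (6 tested of 10 listed) averaged 6.18, 6.01 and 6.14 on the 3 high entorhinal arrays, against at most 5.58 on the other 10. Of these genes, Plac8 and Lyz2 spanned 3.42 and 3.22 log2 units over the entorhinal arrays, and Ccr2, Ngp, Camp and Mpo 0.40 to 0.67. The neutrophil markers S100a8 and S100a9 stayed below the filter, at 3.11 to 3.64 and 3.42 to 4.18 in the entorhinal cortex. Microglial genes (12 tested of 13 listed) averaged 8.84, 9.01 and 8.99 on those 3 arrays, against 8.32 to 8.73 on the other 10. The part of these cells in the complement values was not tested.

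**Figure D2:**
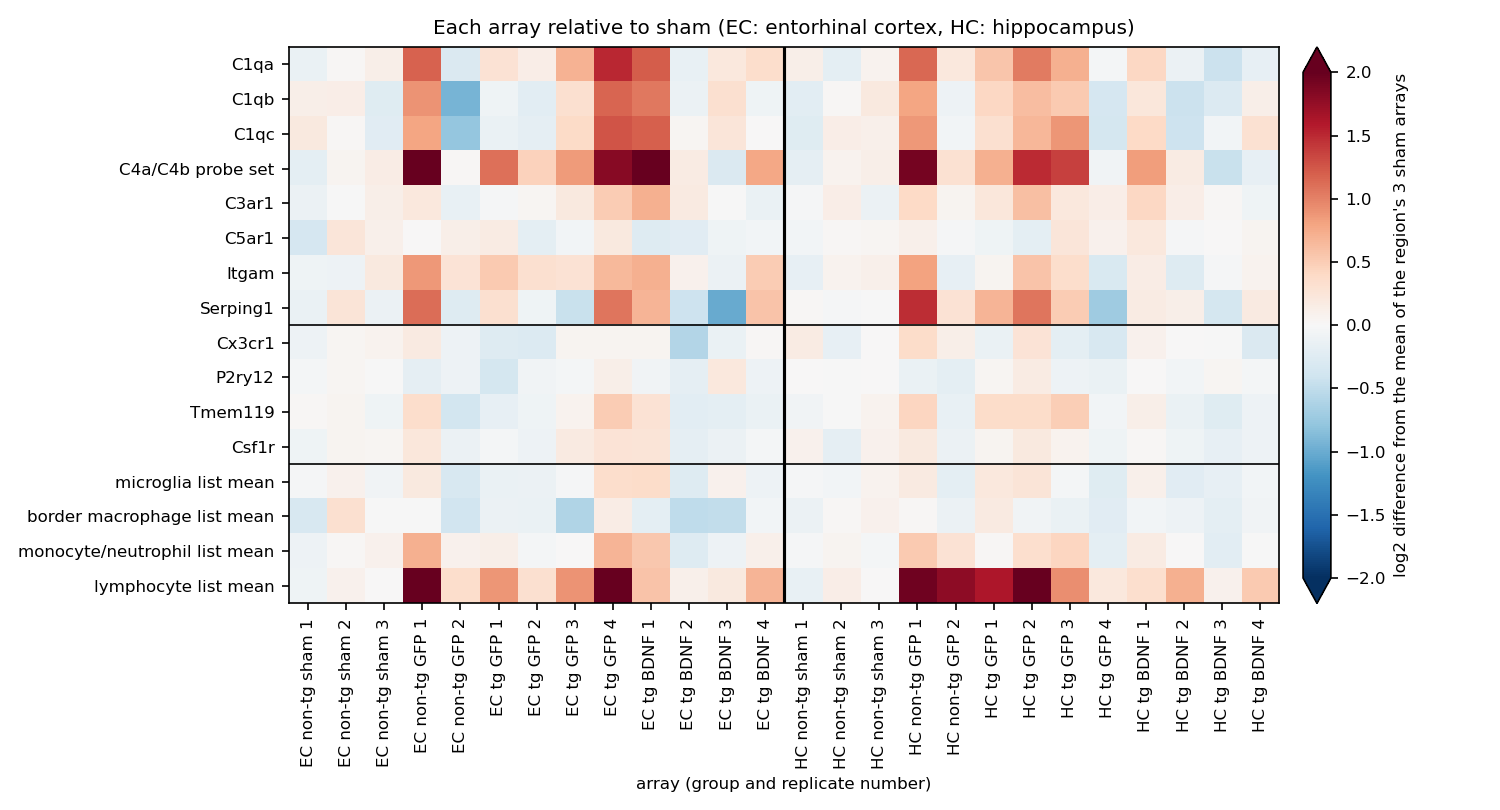
Each column is an array and each row a member, a microglial gene or the mean of a marker list; colour is the log2 difference from the mean of the region's 3 sham arrays, from -2 (blue) to 2 (red), and stronger differences take the end colours. The C1q genes, the C4 probe set, Itgam and Serping1 are red on entorhinal non-transgenic GFP 1, transgenic GFP 4 and transgenic BDNF 1. P2ry12 is near 0 there. On the same arrays Tmem119 read 8.52 to 8.73 and Csf1r 11.72 to 11.76, against at most 8.29 and 11.54 in sham. Cx3cr1 read 9.60 to 9.73 against 9.43 to 9.61 in sham.

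Across the 13 arrays of a region, C1qa was correlated with 6 of the 7 other members read. Relations of C1qa with 7 members and 3 microglial measures were computed in both regions, 20 in all, with permutation p-values adjusted over the 20. With the C4 probe set, Pearson's r was 0.911 in the entorhinal cortex (rho 0.802, permutation p 0.00012 and 0.00171, adjusted 0.0004 and 0.00828) and 0.960 in the hippocampus (rho 0.874, permutation p 1e-05 and 0.00019, adjusted 0.0002 and 0.0038). The p of 1e-05 is the smallest these permutations can give. Without the 2 arrays farthest from the C1qa median, r with C4 was 0.867 and 0.911, and between deviations from group means it was 0.904 and 0.943.

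The other C1q subunits were also correlated with C1qa. For C1qb, r was 0.897 in the entorhinal cortex and 0.872 in the hippocampus (rho 0.791 in both; adjusted permutation p 0.0004 for r and 0.00828 for rho in both), and 0.787 and 0.749 without the 2 farthest arrays. C1qc had r of 0.899 and 0.787 (adjusted permutation p 0.0004 and 0.00308), rho of 0.703 and 0.680 (0.0231 and 0.0248), and r of 0.768 and 0.646 without those arrays. Among the 21 pairs of 7 members, the closest was C1qb with C1qc in the entorhinal cortex, at r = 0.987, and the median pair had 0.771 there and 0.845 in the hippocampus.

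The inhibitor Serping1 and the receptors Itgam and C3ar1 were correlated with C1qa as well. Serping1 had r of 0.706 in the entorhinal cortex and 0.877 in the hippocampus (adjusted permutation p 0.0101 and 0.0004) and rho of 0.615 and 0.830 (0.0423 and 0.0066). Itgam had r of 0.771 and 0.809 (adjusted permutation p 0.00357 and 0.00245) and rho of 0.742 and 0.599 (0.0174 and 0.0473). C3ar1 had r of 0.801 and 0.771 (adjusted permutation p 0.00308 and 0.00357) and rho of 0.648 and 0.665 (0.0317 and 0.0267). Before adjustment the permutation p for r of these 3 genes ran from 8e-05 to 0.00705. Without the 2 farthest arrays r was 0.530 and 0.695 for Serping1, 0.706 and 0.492 for Itgam, and 0.559 and 0.543 for C3ar1, so part of each relation rested on those arrays. C5ar1 had r of 0.126 and -0.012 (rho 0.093 and 0.060; adjusted permutation p 0.757 and 0.967).

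Microglial measures differed in how far they followed C1qa. Of single microglial genes, the correlation with C1qa was tested only for Cx3cr1 and P2ry12. The mean of 12 microglial markers, a list that includes Ctss, had r of 0.846 and 0.744 (rho 0.720 and 0.698; adjusted permutation p 0.000971 and 0.00648). Cx3cr1, the fractalkine receptor, had 0.577 and 0.567 (rho 0.555 and 0.538; 0.0475 and 0.0542), and the hippocampal value was 0.054 without the 2 farthest arrays. P2ry12, a purinergic receptor typical of resting microglia, had 0.125 and 0.090 (rho 0.132 and 0.022; adjusted permutation p 0.757 and 0.809). P2ry12 spanned 9.04 to 9.60 in the entorhinal cortex, while C1qa spanned 9.01 to 10.805. Between deviations from group means, r was 0.937 and 0.855 for the marker mean, 0.793 and 0.734 for Cx3cr1, and 0.277 and 0.590 for P2ry12. Tmem119 and Csf1r were not tested for correlation with C1qa. Their highest 3 entorhinal arrays, at 8.52 to 8.73 and 11.72 to 11.76, were the highest 3 of C1qa. In the hippocampus this held for Tmem119 but not for Csf1r.

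**Figure D3:**
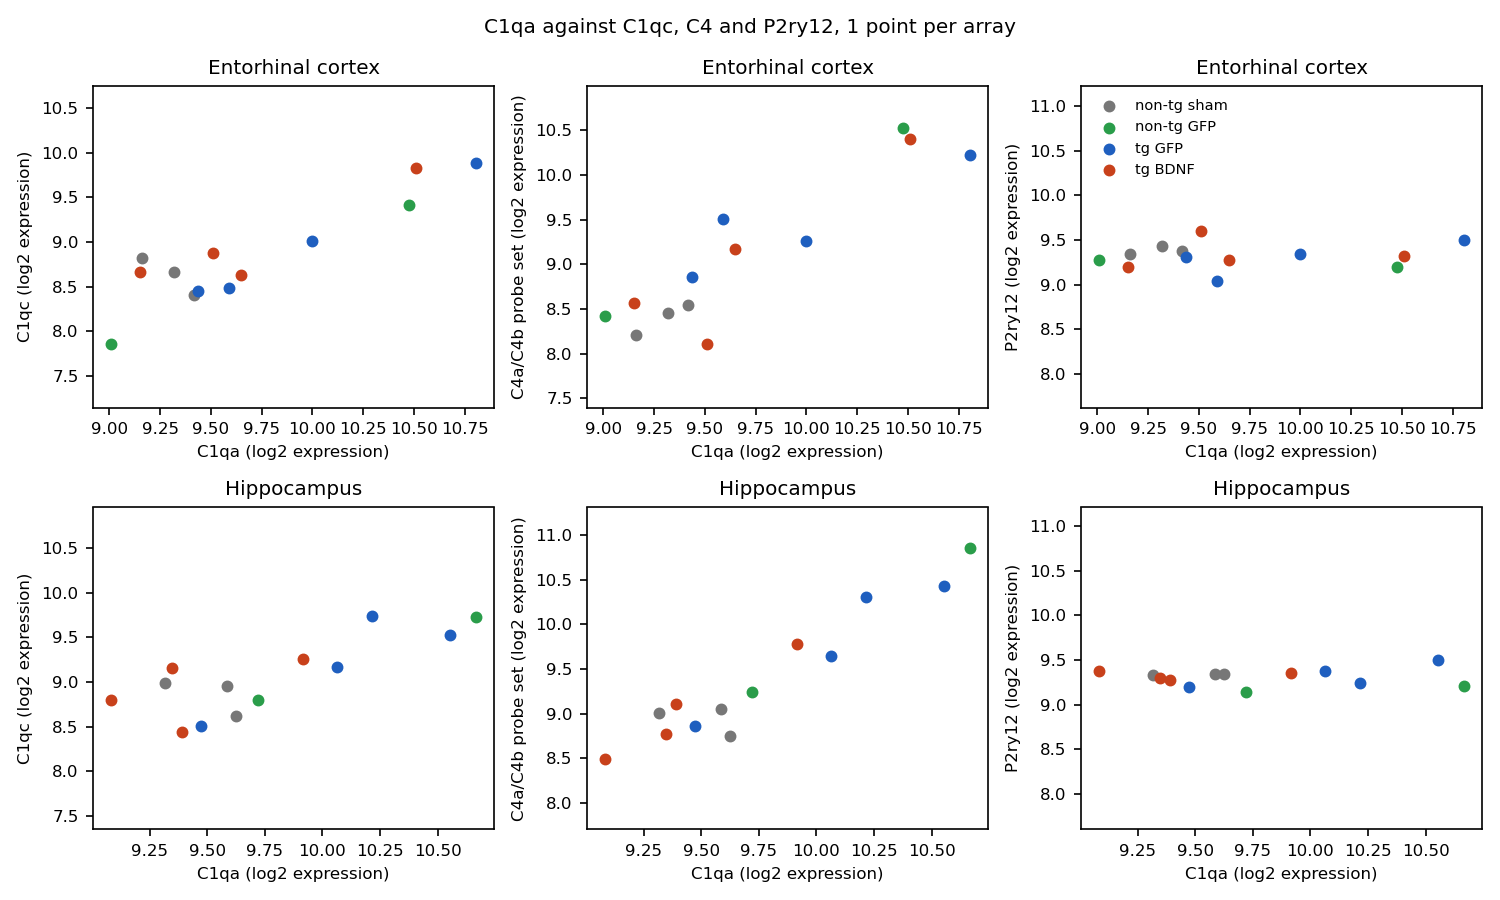
Log2 expression of C1qa on the x axis against C1qc, the C4 probe set and P2ry12 on the y axis, 1 point per array and coloured by group; the y axes of the 6 panels cover the same number of log2 units. C1qc and C4 rise along C1qa in both regions (r = 0.911 for entorhinal C4), and P2ry12 does not (r = 0.125 and 0.090).

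Genes whose profile over the 13 arrays was most like that of a member were named for C1qa, the C4 probe set and Serping1, as a description. For the entorhinal arrays, the genes likest to C1qa were Ctss (r = 0.983), which encodes cathepsin S, Adgre1 (0.981), a macrophage marker, Ccl12, Cd274 and Fyb. For the C4 probe set they were H2-Eb1 (0.974), a class II histocompatibility gene, Tap2, BC023105, Irgm1 and B2m. Serping1 was most like Tmem140 (0.944), Ifitm3, Cp, Msn and Rps27l.

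In the hippocampus C1qa was most like H2-DMa (0.968), Ncf1, Clec7a, Slamf9 and Parp14. The C4 probe set was most like Itgax (0.972), an integrin chain of complement receptor CR4, Parp14, Tapbp, Tlr2 and Tap2. Serping1 was most like Mpeg1 (0.973), Ptprc, Itgb2, Ms4a6b and Slc15a3. No name recurred between regions except Tap2, for the C4 probe set.

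BDNF was compared with GFP in transgenic mice. In the hippocampus the 6 members tested read lower with BDNF, with log2 differences of -0.64 to -0.17, where 45.5% of all genes had a difference above 0, and in the entorhinal cortex they differed in no common direction. With limma and Benjamini-Hochberg adjustment, 0 of 6 members were called in either region at an adjusted p under 0.05, where the share of all genes called was 0% in both. At an unadjusted p under 0.05 there was 1 of 6 in the hippocampus, against 5.31% of all genes, and 0 of 6 in the entorhinal cortex, against 3.88%.

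The hippocampal member with that p was C1qa, at -0.64 ± 0.24 (SE; limma p 0.0208, adjusted p 0.901), and leaving out each array gave -0.84 to -0.48. The groups overlapped, because transgenic GFP array 4 lay among the BDNF arrays. C1qb differed by -0.39 ± 0.23, C1qc by -0.32 ± 0.27, C3ar1 by -0.17 ± 0.13 and Serping1 by -0.35 ± 0.33, and the C4 probe set by -0.77 ± 0.38 (limma p 0.0653, adjusted p 0.988). Itgam differed by less than its SE, and so did C5ar1. Without 1 array at a time the differences ran from -0.60 to -0.28 for C1qb, -0.57 to -0.15 for C1qc, -0.27 to -0.071 for C3ar1, -0.72 to -0.12 for Serping1 and -1.09 to -0.57 for C4. The median of the 6 was -0.34, and that of all genes -0.01.

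The third probe set of C3ar1 had the largest hippocampal difference of its 3, -0.55 ± 0.26 (limma adjusted p 0.988). Its transgenic GFP arrays ran from 4.29 to 6.08 and its BDNF arrays from 4.39 to 4.72. Among entorhinal differences only C5ar1 differed by more than its SE, at -0.18 ± 0.13 (limma adjusted p 0.997; -0.26 to -0.12 without 1 array at a time), a probe set near the bottom of the scale.

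By gene counts and medians, marker lists differed in direction in the hippocampus. With BDNF 9 of 12 microglial genes (median -0.16), 6 of 8 lymphocyte genes (-0.15), 7 of 7 oligodendrocyte genes (-0.29) and 5 of 6 endothelial genes (-0.089) read lower. In the other direction, 4 of 6 monocyte and neutrophil genes (median 0.044) and 4 of 7 border macrophage genes (0.045) read higher. So did 5 of 8 astrocyte genes (0.033) and 5 of 8 neuronal genes (0.034). The group means of these lists were still lower with BDNF than with GFP. They were 5.35 against 5.51, 5.15 against 5.19, 11.03 against 11.10 and 11.79 against 11.81 in that order. Limma called 0 genes of the lists named. Their part in the complement values was not tested. The BDNF difference was 0.03 to 0.39 higher in the entorhinal cortex than in the hippocampus for the 6 members, and limma called 0 of 6 for that difference (adjusted p 0.996 or more), where 0% of all genes were called. At an unadjusted p under 0.05 there were 0 of 6, against 4.03% of genes.

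The transgenic GFP arrays were compared with all 5 non-transgenic arrays for the difference between genotypes. All 6 members tested read higher in transgenic tissue in both regions, by 0.04 to 0.48 in the entorhinal cortex (median 0.26 against 0.01 over all genes, of which 55.8% were above 0) and 0.03 to 0.29 in the hippocampus (median 0.18 against 0.01, with 57.2% above 0). Limma called 0 of 6 in either region, against 0.0134% of all genes in the entorhinal cortex and 0.0402% in the hippocampus. No member had an unadjusted p under 0.05, against 4.76% and 4.49% of genes.

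Entorhinal C1qa was 0.48 ± 0.35 (SE) higher, Itgam 0.22 ± 0.17, C3ar1 0.17 ± 0.17 and the C4 probe set 0.63 ± 0.47. In the hippocampus C1qa was 0.29 ± 0.23 higher, C3ar1 0.21 ± 0.12 and the C4 probe set 0.43 ± 0.37. The remaining members differed by less than their SE. Without 1 array at a time the entorhinal differences ran from 0.20 to 0.73 for C1qa, 0.13 to 0.37 for Itgam, 0.058 to 0.24 for C3ar1 and 0.38 to 1.05 for C4. Those in the hippocampus ran from 0.13 to 0.51 for C1qa, 0.10 to 0.28 for C3ar1 and 0.22 to 0.80 for C4. Against the non-transgenic GFP arrays alone, the 6 members ran from -0.22 to 0.32 in the entorhinal cortex (0 called by limma; 0.0134% of genes) and from -0.50 to 0.07 in the hippocampus (0 called; 0.00669%), with 0 of 6 at an unadjusted p under 0.05 in both, against 2.5% and 4.41% of genes. The sign of some members thus depended on whether sham arrays were among the controls.

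Transgenic BDNF arrays against all non-transgenic arrays gave -0.21 to 0.37 in the entorhinal cortex (0 of 6 called by limma; 0.0402% of genes) and -0.35 to 0.03 in the hippocampus (0 of 6; 0.0535%), with 0 of 6 at an unadjusted p under 0.05 in both, against 13.2% and 6.6% of genes. These comparisons share control arrays with those above. Between regions (entorhinal minus hippocampal) the transgene difference of the 6 members differed by -0.04 to 0.19. Limma called 0 of 6 of these, where 0% of genes were called, and 0 of 6 had an unadjusted p under 0.05, against 2.01% of genes.

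Vector delivery was compared with sham in non-transgenic mice, 2 arrays against 3. In the hippocampus all 6 members read higher with GFP, by 0.22 to 0.88, with a median of 0.38 where all genes had -0.04 and 38.3% of them were above 0. In the entorhinal cortex Itgam and the C4 probe set were the members that differed by more than their SE. Limma called 0 of 6 in either region, against 0.0201% of all genes in the entorhinal cortex and 0.0335% in the hippocampus. At an unadjusted p under 0.05 there was 1 of 6 in both regions, against 2.95% and 9% of genes.

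In the hippocampus C1qa was 0.68 ± 0.31 (SE) higher (limma p 0.0491, adjusted p 0.555), Serping1 0.88 ± 0.42 (p 0.0565, adjusted p 0.571, limma) and the C4 probe set 1.11 ± 0.50 (limma p 0.0428, adjusted p 0.567). C1qb was 0.34 ± 0.30 higher, C1qc 0.41 ± 0.35, C3ar1 0.22 ± 0.16 and Itgam 0.31 ± 0.27. The groups did not overlap for 2 of 6 members, C1qa and Serping1, against 29% of all genes. Non-transgenic GFP array 1 carried much of this. Without it C1qa was 0.21, C3ar1 0.051, Serping1 0.28 and C4 0.31. On their main probe sets C1qb, C1qc and Itgam turned to -0.10, -0.052 and -0.17. The other probe sets of C1qb read 8.03 and 8.48 on non-transgenic GFP array 2, above their sham means of 7.71 and 8.42.

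Entorhinal Itgam was 0.57 ± 0.24 (SE) higher with GFP (limma p 0.0332, adjusted p 1), and the C4 probe set 1.07 ± 0.64. The groups did not overlap for 1 of 6 members, Itgam, against 19.2% of all genes. Leaving out each array in turn gave 0.27 to 0.86 for Itgam and 0.02 to 2.12 for C4. Lymphocyte genes read higher with GFP in both regions, 7 of 8 in each (median 0.52 and 0.54), and microglial genes had medians of 0.03 and 0.09, with 0 called. The part of lymphocytes in the complement values was not tested.

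All 10 arrays of a region with vector were also set against its 3 sham arrays. All 6 members read higher with vector in both regions, by 0.15 to 0.51 in the entorhinal cortex, where 55.2% of genes were above 0, and by 0.12 to 0.34 in the hippocampus, where 44.1% were. Limma called 0 of 6 in either, against 0.0602% and 0.0937% of genes. At an unadjusted p under 0.05 there was 1 of 6 in the entorhinal cortex, Itgam, against 8.51% of genes, and 0 of 6 in the hippocampus, against 9.58%. This contrast mixes genotype with vector, because every sham mouse was non-transgenic.

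**Figure D4:**
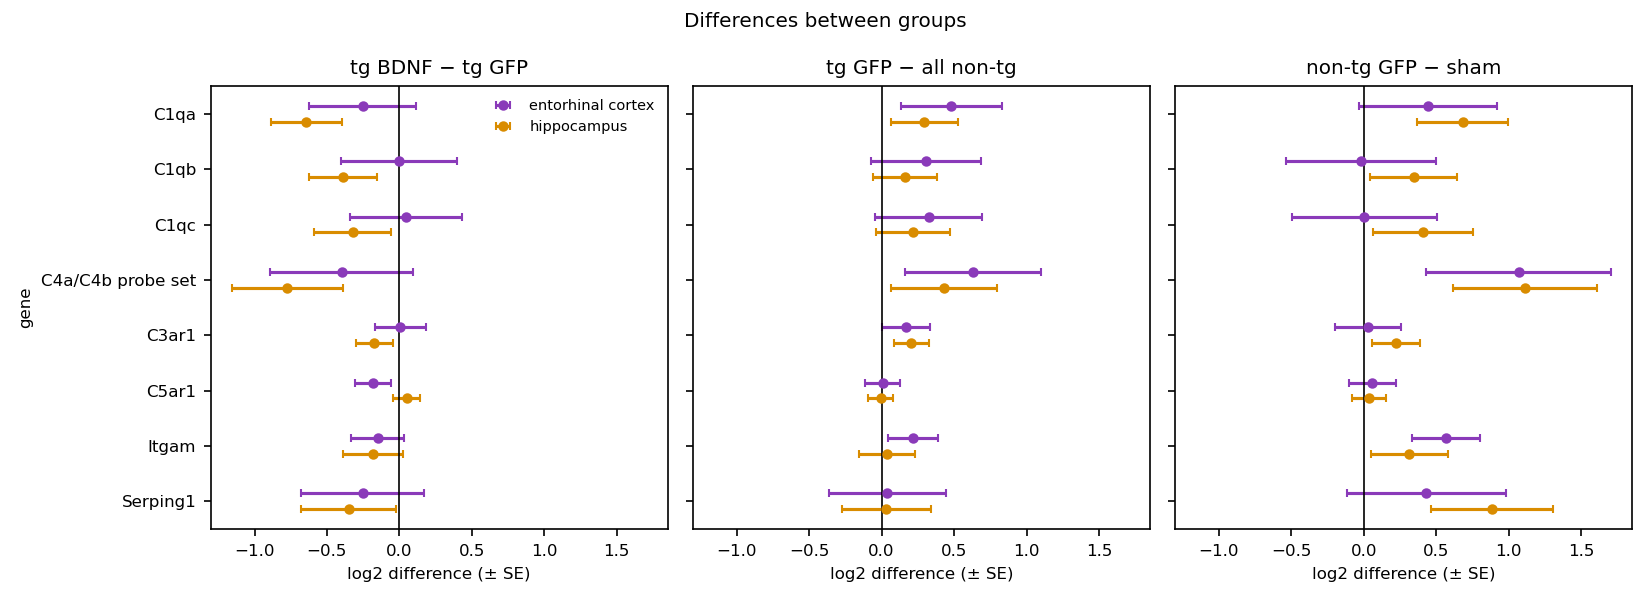
Log2 differences of the 8 members read, with bars of 1 SE, for BDNF minus GFP in transgenic mice (left), transgenic GFP minus all non-transgenic arrays (middle) and non-transgenic GFP minus sham (right), in the entorhinal cortex (purple) and hippocampus (orange). C4 has the widest bars. Hippocampal points of all members but C5ar1 lie left of 0 for BDNF (-0.64 for C1qa), and those of all 8 lie right of 0 for GFP against sham (0.68 for C1qa).

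The regions were compared within each genotype. Among non-transgenic arrays 0 of 6 members were called by limma (0 of 6 at an unadjusted p under 0.05, against 44.6% of genes), where 36.8% of all genes were called. Entorhinal C1qb was -0.62 ± 0.31 (SE) relative to the hippocampus (limma adjusted p 0.129), C1qa -0.31 ± 0.30, C1qc -0.39 ± 0.32, the C4 probe set -0.55 ± 0.43 and C5ar1 -0.13 ± 0.10. Without entorhinal non-transgenic GFP array 1, C1qb was -0.84 on its main probe set with a limma adjusted p of 0.0222, and 1 member was called. On the other probe sets of C1qb, sham means were 7.83 and 8.26 in the entorhinal cortex, against 7.71 and 8.42 in the hippocampus. Their non-transgenic GFP means were 7.81 and 8.27 against 8.42 and 8.98. Over the arrays left out in turn, C1qa ran from -0.56 to -0.086, C1qc from -0.58 to -0.19, C4 from -0.98 to -0.19 and C5ar1 from -0.18 to -0.036.

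Among transgenic arrays 0 of 6 were called by limma (0 of 6 at an unadjusted p under 0.05, against 50.8% of genes), where 44.3% of genes were called. C1qb differed by -0.28 ± 0.25 (SE) and Serping1 by 0.32 ± 0.29, with ranges of -0.41 to -0.21 and 0.18 to 0.47 without 1 array at a time. In the fit over all probe sets, which called 32.8% of them, C5ar1 was lower in the entorhinal cortex, at -0.23 ± 0.08 (limma adjusted p 0.0308). The call was lost, at adjusted p-values of 0.0502 to 0.0692, without each of entorhinal BDNF arrays 1 and 2, hippocampal BDNF array 1 and hippocampal GFP arrays 3 and 4. Its second probe set read 0.20 ± 0.09 in the opposite direction (limma adjusted p 0.104), and both are dim.

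The second probe set of C3ar1 was higher in the transgenic entorhinal cortex by 0.38 ± 0.14 (limma adjusted p 0.0357 over all probe sets). Its main probe set read 0.11 ± 0.11 there and was not called. On the third, entorhinal means were 4.91 with BDNF and 5.15 with GFP, against 4.57 and 5.12 in the hippocampus. The probe sets of C3ar1 thus shared a direction but differed in size.

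Other complement genes were read from a list of 44, of which 31 were tested, 8 lay below the filter and 5 had no probe set named. Within a region limma called 0 of 31 in each comparison. For BDNF against GFP in the hippocampus, 2 of 31 had an unadjusted p under 0.05, against 5.31% of all genes, and the largest differences were those of Itgax at -0.77 ± 0.27 (SE) and Itgb2 at -0.57 ± 0.28, which encode the CR4 alpha chain and the beta chain shared by CR3 and CR4. In the entorhinal cortex 0 of 31 had such a p, against 3.88%, and the largest were Cfb, factor B of the alternative pathway, at -0.44 ± 0.30 and Itgax at -0.33 ± 0.42. For GFP against sham in the hippocampus, 5 of 31 had such a p, against 9%, with Itgax at 0.96 ± 0.35 and C1ra, a C1 protease gene, at 0.94 ± 0.23 (limma p 0.00113, adjusted p 0.368) the largest.

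Between regions the same list gave calls in both genotypes. Among non-transgenic arrays limma called 3 of 31 higher in the entorhinal cortex, Hc (0.77 ± 0.15, SE), which encodes C5, Csmd1 (0.46 ± 0.15) and Cfi (0.38 ± 0.12), the factor I protease. It called 3 of 31 lower, Colec11 (-0.72 ± 0.18), a collectin of the lectin pathway, Susd4 (-0.47 ± 0.06), a complement regulator, and C1qbp (-0.17 ± 0.06). Among transgenic arrays it called 4 of 31 higher, Hc (0.64 ± 0.12), Cfi, C2 and Cd46, and 4 lower, Colec11 (-0.69 ± 0.14), Susd4 (-0.35 ± 0.05), Masp1 and Sez6l. These shares, 6 and 8 of 31, lie below the 36.8% and 44.3% of all genes called.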

How the data were processed

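Expression was measured on 26 Affymetrix arrays. The authors deposited a table of log2 values made with RMA (background correction, quantile normalization, summary of probes), per the submitters' processing notes. Neither its version nor a genome build was found in those notes. RMA gives all arrays a common distribution, so a change shared by most genes is not visible, and differences of dim probe sets are compressed. The number of arrays limits the precision.

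Of the probe sets, 34958 carried 1 symbol in the platform annotation, 932 several and 9211 none; 34754 symbols were updated through RefSeq (GRCm38.p6). Each gene was read on its brightest probe set, and genes below the 30th percentile (4.33) were left out. Limma 3.58.1 (R 4.3.3; lmFit, eBayes) was fitted over the 13 arrays of a region, or over all 26 between regions, in 16 comparisons. Tests were 2-sided, adjusted by Benjamini-Hochberg over all features tested, and called at an adjusted p under 0.05. The C4 probe set and C5ar1 were tested over all 45101 probe sets. Correlations used 100000 permutations (SciPy 1.17.1, Python 3.11.15). The fits were tested on simulated data.

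Members and gene lists were chosen with earlier results of these data known. All members were described in every comparison. Of the 44 other complement genes, those called were named, up to 4 in each direction, or else the 2 with the largest change. A member's difference is printed with its value where it reached its SE in the main comparisons, a choice made after the values were seen. The labels do not say that replicate numbers pair arrays. Of 32 same-numbered pairs within a region, 8 had a correlation of deviations from group means over 0.1. Such pairs come from different groups, so they cannot show whether arrays share an animal. Between regions, 13 same-numbered pairs had correlations of -0.487 to 0.479, with 3 over 0.1. Of these pairs, 6 differed in whether Xist was high, so a number was not taken to mark an animal. No batch is named in the labels, and 0 pairs of arrays held identical values.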

Additional observations from a re-analysis of the deposited data

Results flagged for a closer look

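Of 32 groups of 4 arrays examined (8 members in 4 groups), 1 held an array far from the other 3. Serping1 read 6.75 on hippocampal transgenic BDNF array 3, where the others read 7.22, 7.26 and 7.28, and its gap to the nearest was 0.882 of the group's range, above Dixon's critical value. Chance flags about 1 in 20 groups. C1qa and the C4 probe set had their lowest hippocampal values on the same array, at 9.08 and 8.49. The BDNF difference of Serping1 in the hippocampus, -0.35 ± 0.33 (SE), was not called with or without that array.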

How the results depend on the processing

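Over 13 other settings (probe set choice, filter, normalization, array weights, variance model, arrays in the fit, Xist as a covariate and the replicate block among them), the count called among the 6 members of the gene-level fit stayed at 0 in all 16 comparisons. This leaves out C5ar1, called between regions in transgenic mice in the fit over all probe sets, and the second probe set of C3ar1. With the replicate number as a block it was likewise 0 throughout, and the labels do not say that these numbers pair the arrays. Both low-myelin entorhinal arrays were left out together as an alternative chosen after seeing the data. For the same 6 members, leaving out 1 array at a time gave counts of 0 to 1 for the region difference in non-transgenic mice, and 0 in the other 15 comparisons.

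Settings were followed one by one for 31 member differences that reached their SE. The sign held in all 339 refits other than those without an array. Without hippocampal non-transgenic GFP array 1, the GFP difference from sham turned negative for 3 members on their main probe sets. Over the arrays left out in turn this difference ran from -0.10 to 0.79 for C1qb and from -0.052 to 0.87 for C1qc. For Itgam it ran from -0.17 to 0.80. The cause was not tested. The C5ar1 call between regions was lost without each of 5 of the 16 transgenic arrays. The other 97 member differences were smaller or in further comparisons. Of these, 58 turned sign in at least 1 fit without an array and 34 in at least 1 other setting, while 0 were called in any fit.

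Counts over all genes moved more than those of members. In the hippocampus, GFP against sham called 5 genes, and 21 with only those groups in the fit. All vector arrays against sham called 14 there, and 82 with array weights. Transgenic GFP against all non-transgenic called 6 there, with 1 to 8 over other settings, and transgenic BDNF 8, with 1 to 14. In the entorhinal cortex these called 2 (up to 5) and 6 (3 to 22), GFP against sham 3 (down to 0), transgenic against non-transgenic GFP 2 (down to 1; hippocampus 1, up to 3) and all vector against sham 9 (6 to 16). The region comparisons called 5497 and 6624 genes, and 10795 and 14810 probe sets one by one.

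With 2 non-transgenic GFP arrays and within-group SDs of 0.39 to 0.83 for C1q, C4 and Serping1, differences of the size printed are not separable from the spread.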
